A study of Drosophila melanogaster with 16 samples.

Results

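RNA from fly heads was compared between the 5 libraries that carry batch number 3 or 4 and the 8 libraries that carry batch number 1 or 2, with genotype held constant. The members were chosen by the number in the column names, which the labels give as the batch of a sample, and they are 5 of the 13 libraries with a column in the table. The labels list 16 samples, and the other 3 were not analysed here. No label says what the batch number stands for, so the word batch is used here only as the name of that number. Batch 3 held 3 libraries (both 3, neuron 3 and control 3), batch 4 held 2 (both 4 and glia 4), and batches 1 and 2 held 4 each, with 1 of every genotype.

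The study placed human wild-type α-synuclein in neurons, glia, both cell types or neither. The genotypes were SybQF2, RepoGAL4, QUASSyn/UAS-Syn for both, SybQF2, RepoGAL4, QUAS-Syn/+ for neuron, SybQF2, RepoGAL4/UAS-Syn for glia, and SybQF2, RepoGAL4/+ for control. All 4 genotypes therefore carried the neuronal Synaptobrevin driver of the Q system and the Repo driver, which is active in all glia and works through GAL4, controls included, and differed in the α-synuclein transgenes. Flies were 10 days old, and each library came from 6 pooled flies (3 of each sex), so that n counts pools. Nothing says whether pools were raised apart, so p-values measure the spread between these pools. Pools that share a batch number entered every test as separate units. Whole batches were never the unit, so no p-value takes batches as the replicates. The main limma fit has no term for single batches. Differences between batches of a set therefore enter its residual spread, counted over pools as if these were unlinked. A fit with batch as 4 levels takes those differences out of that spread.

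A head contains neurons, glia, photoreceptors, muscle, fat body and cuticle-forming cells, and the RNA of all of them is read together. Heat shock proteins keep other proteins folded, antimicrobial peptides act in the immune response, yolk proteins are made by the female fat body, and pigment genes colour the eye. Libraries of one genotype made under different batch numbers show how far such genes vary apart from genotype. In bulk libraries, fewer cells of a type and less RNA per cell cannot be told apart.

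The 5 libraries of batches 3 and 4 had 2808960 to 4767799 reads in genes, against 3060727 to 4400688 in batches 1 and 2. Of 6 library measures, 1 passed an exact two-sided permutation test of batch set within genotype, which has 162 arrangements. The test moves single libraries and not whole batches, so it takes libraries of a batch as unlinked. The 10 most abundant genes of a library took 10.1% ± 0.778 of reads in batches 3 and 4 and 12.7% ± 1.25 in batches 1 and 2 (SD, n = 5 and n = 8, exact permutation p = 0.0061728, the smallest it can give, and 0.037 after Benjamini-Hochberg adjustment over the 6). Yp1, Yp2 and Yp3, the yolk protein genes, took 2.22% ± 0.801 of reads in batches 3 and 4. In batches 1 and 2 they took 3.95% ± 1.18. The 10 most abundant other genes took 9.33% ± 0.335 of all reads, yolk reads included, in batches 3 and 4. That share in batches 1 and 2 was 10.4% ± 1.08, and neither difference was tested. With any 1 library left out, the genotype-adjusted difference of the tested 10-gene share lay between -3.05 and -2.46 percentage points, beside -2.74 with all. At most 108 arrangements then remain, so the adjusted p cannot go below 0.0556 and no such test could pass. All 101 tested markers of neurons, glia, photoreceptors and muscle had reads in at least 1 library of each batch set. The filter for testing, at least 1 in at least 4 libraries, made this likely beforehand, so nothing is read from it.

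Normalized counts are given throughout, which are the deposited values minus 1. Of the 12181 genes tested with limma on log2(normalized count + 1), 41 changed at a Benjamini-Hochberg adjusted p under 0.05, or 0.337% of all. Of these, 31 were higher in batches 3 and 4 (0.254%) and 10 were lower (0.0821%). An unadjusted p under 0.05 was reached by 890 genes, against 609 that a uniform p would give. With libraries centred on neuronal genes, 18 changed, 11 higher and 7 lower. The median log2 fold of all genes was -0.02. Of the 41, 20 of the higher and 5 of the lower ones changed past 2-fold, and 6 in all belonged to 1 of the 40 gene lists described below.

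**Figure D1:**
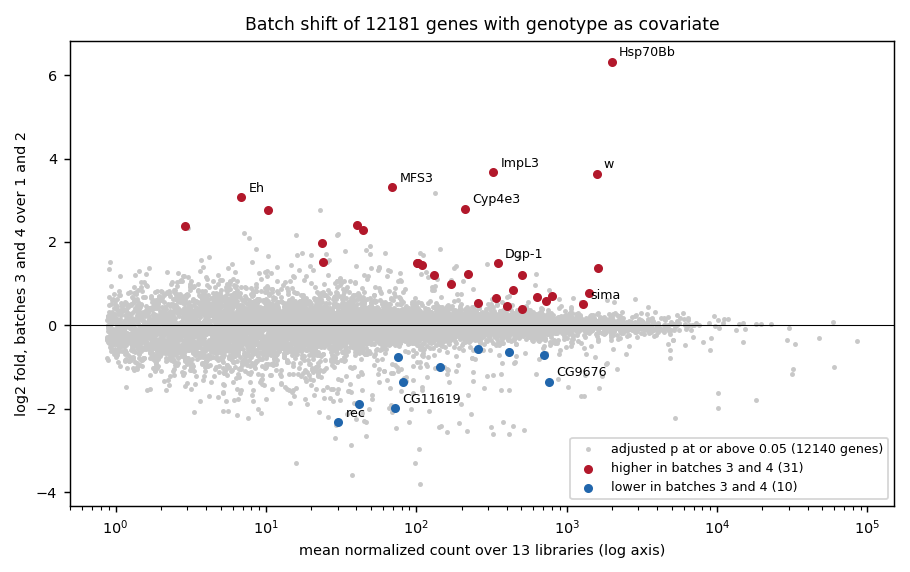
Log2 fold of batches 3 and 4 over batches 1 and 2 with genotype as covariate (vertical axis) against the mean normalized count over 13 libraries (horizontal log axis) for 12181 genes. Red points are the 31 genes higher in batches 3 and 4, blue points the 10 lower ones, and Hsp70Bb stands highest at 6.32.

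Hsp70Bb, which encodes a stress-inducible Hsp70 chaperone, had the largest log2 fold of the genes that changed. It had 5433 and 5589 normalized counts in both 3 and both 4, 5688 in neuron 3, 4829 in glia 4 and 3730 in control 3, while the 8 libraries of batches 1 and 2 had between 11.5 and 188 with a median of 94.3. The ranges did not come near each other. The mean ratio was 53.8, with a log2 fold of 6.32 (SE 0.67, limma adjusted p = 0.00108). Without batch 3 the adjusted p was 0.144, the highest over 28 alternatives, and the call held in the other 27. Hsp70Bb (FBgn0013278) lies on 3R:12505793-12508139 of BDGP6.

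Hsp70Bb has near-identical copies beside it, and how the authors' counting split reads between them is not known, so its level is uncertain. Hsp70Bbb and Hsp70Bc, each 937 bp away, had at most 4.80 and 32.5 in batches 3 and 4, against at most 35.8 and 27.5 in batches 1 and 2. Hsp70Ab, a copy at another locus, had 22.1 to 165 in batches 3 and 4 and 65.1 to 441 in batches 1 and 2. Hsp70Ba had 3.25 to 6.63 in batches 3 and 4, against 0 in 6 of the 8 libraries of batches 1 and 2 and 7.66 and 15.6 in both 1 and glia 1, with a log2 fold of 1.57 (limma adjusted p = 0.684). None of these 4 copies passed the test, and their ranges overlapped; all but Hsp70Ba and Hsp70Bbb were named after their values were seen. Of the 17 tested heat shock proteins and chaperones, 1 was higher and 0 lower, beside 0.337% of all genes that changed. Hsc70-4, with the smallest p after Hsp70Bb, had a log2 fold of -0.29 (limma adjusted p = 0.632). The list's median log2 fold was 0.06, or -0.03 with libraries centred on neuronal genes, beside -0.02 over all genes.

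The white gene w encodes a subunit of the ABC transporter that carries eye pigment precursors into pigment granules. It had 3663 and 4252 normalized counts in both 3 and both 4, 3770 in neuron 3, 3431 in glia 4 and 2987 in control 3, against 188 to 511 in batches 1 and 2 with a median of 251. Every library of batches 3 and 4 stood above every library of batches 1 and 2. The mean ratio was 11.9 and the log2 fold 3.64 (SE 0.26, limma adjusted p = 3.49e-05). The fold was 3.53 for batch 3 and 3.82 for batch 4, each against batches 1 and 2, whose libraries both comparisons share.

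The genes around w (FBgn0003996, X:2790599-2796466) did not pass the test. CG32795, 32 bp away, had a log2 fold of 0.31 (limma adjusted p = 0.254), and kirre, in whose span w lies, had -0.11 (limma adjusted p = 0.928). Of the 21 tested eye pigment genes, w alone changed, beside 0.337% of all genes. In the list, 11 had a positive log2 fold, and the median was 0.0019, or -0.08 with libraries centred on neuronal genes. The smallest p-values after w were those of mal at 0.41, Hn at -0.43 and dor at 0.27 on the log2 scale, none of which passed.

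**Figure D2:**
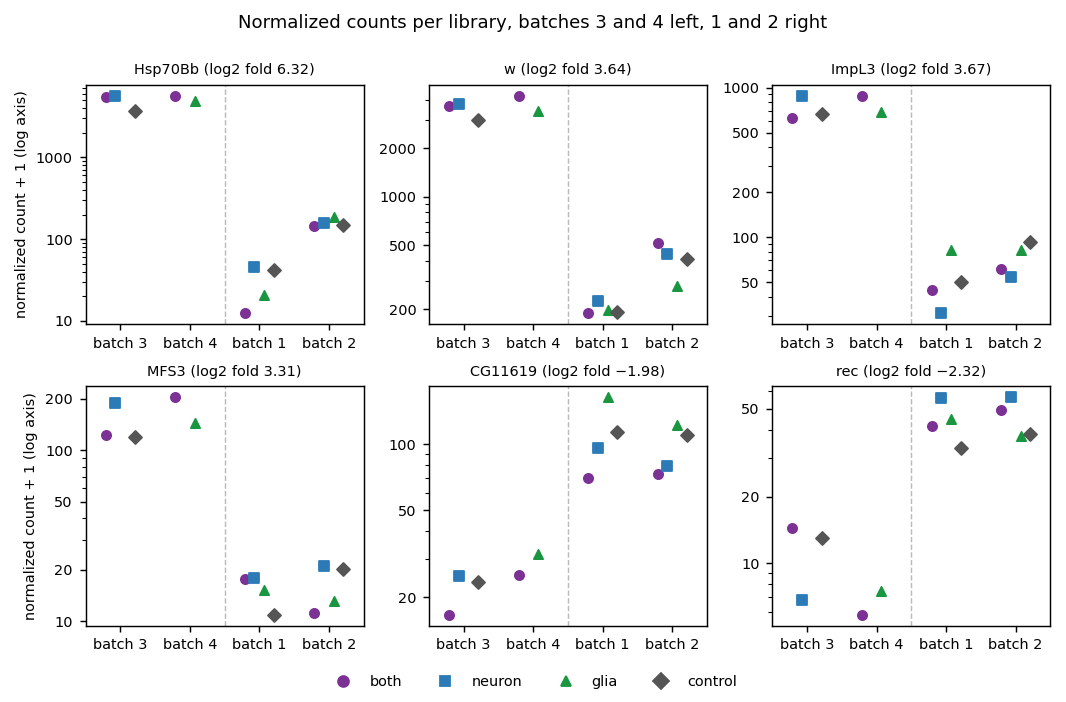
Normalized count plus 1 on log axes for 6 genes in each of 13 libraries, with batches 3 and 4 left of the dashed line and batches 1 and 2 right of it. Symbols mark genotype; in every panel the libraries on the left lie on one side of all those on the right, from 3730 or more against at most 188 for Hsp70Bb to at most 13.4 against at least 32.2 for rec.

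Lactate dehydrogenase, listed as ImpL3 and now named Ldh, turns pyruvate into lactate at the end of glycolysis. It had 624.9 and 883 normalized counts in both 3 and both 4, 877 in neuron 3, 684 in glia 4 and 667 in control 3, against 30.2 to 92.3 in batches 1 and 2 with a median of 57.2. The lowest library of batches 3 and 4 was several times above the highest of batches 1 and 2. The mean ratio was 12.2 and the log2 fold 3.67 (SE 0.23, limma adjusted p = 1.13e-05). ImpL3 lies on 3L:6259105-6262694.

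Of the 12 tested genes of glycolysis, a list written after values had been seen, ImpL3 alone changed, beside 0.337% of all genes. The list's median log2 fold was 0.08, or -0.0037 with libraries centred on neuronal genes. Pfk, the phosphofructokinase that commits sugar to glycolysis, had a log2 fold of 0.45 (limma adjusted p = 0.103) and Pgi, which acts just before it, 0.27 (limma adjusted p = 0.65). The hypoxia factor sima, the fly HIF-1α, was higher, with 1521 and 1566 in both 3 and both 4, 1626 in neuron 3, 1556 in glia 4 and 1524 in control 3, against 928 to 1214 in batches 1 and 2 with a median of 1126. Its log2 fold was 0.51 (SE 0.07, limma adjusted p = 0.00922), and the groups did not overlap. Of the 7 tested hypoxia genes, chosen the same way, sima alone changed, beside the same 0.337% of all genes. Its partner tgo had -0.13, and the list's median was 0.04, or -0.05 with libraries centred on neuronal genes.

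MFS3, a transporter of the major facilitator superfamily, had 123 and 204 normalized counts in both 3 and both 4, 187 in neuron 3, 144 in glia 4 and 119 in control 3, against 9.92 to 20.01 in batches 1 and 2 with a median of 15.5. The log2 fold was 3.31 (SE 0.20, limma adjusted p = 1.13e-05). Dgp-1, a GTP-binding protein, had 469 and 595 in both 3 and both 4, 695 in neuron 3, 559 in glia 4 and 558 in control 3, against 179 to 238 in batches 1 and 2 with a median of 207. Its log2 fold was 1.49 (SE 0.09, limma adjusted p = 1.13e-05). Neither gene overlapped between the sets.

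Cyp4e3, a cytochrome P450, was uneven within batches 3 and 4. It had 553 and 187 in both 3 and both 4, 1047 in neuron 3, 257 in glia 4 and 235 in control 3, against 31.0 to 88.7 in batches 1 and 2 with a median of 55.6. The sets did not overlap, but neuron 3 stood far above the other libraries of its set, and the log2 fold was 2.80 (SE 0.41, limma adjusted p = 0.0094). The call was lost with libraries centred on neuronal genes (limma adjusted p = 0.065) and without batch 3, batch 1 or batch 2 (0.205, 0.211 and 0.152). Among the 81 tested P450 genes Cyp4e3 was higher and Cyp4d20 lower, beside 0.254% higher and 0.0821% lower over all genes. Cyp4d20 had 70.5 to 122 in batches 3 and 4, against 142 to 236 in batches 1 and 2, and a log2 fold of -0.99. Cyp305a1 had 0.54 (limma adjusted p = 0.0535), and the list's median was 0.06, or -0.02 with libraries centred on neuronal genes.

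Of the other genes named by the rule, CG17669 (Dnaaf3, a dynein assembly factor) had a log2 fold of 2.29, the salivary gland transcription factor gene sage 1.97, CG7130 1.51, and lectin-28C, a C-type lectin, 1.502. All 5 libraries of batches 3 and 4 lay above all 8 of batches 1 and 2 for these 4 genes, which kept their calls in 26, 25, 22 and 27 of 28 alternatives in that order. CG8620 had 2.40 and Cry, the Crystallin gene and not the cryptochrome, 1.48; both lost significance in 11 or more of 28 alternatives. The other higher genes, outside the rule and named after their values were seen, included Kdm2, a histone demethylase (0.85), klhl10, a kelch protein gene (1.20), cv-2, a BMP-binding protein (0.99), and Eh, the eclosion hormone (3.08). Eh had at most 3.42 normalized counts in batches 1 and 2, where 4 of 8 libraries had 0, against 5.30 to 21.2 in batches 3 and 4, so its fold depends on the added 1.

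The meiotic recombination gene rec had the lowest log2 fold of the genes that changed. It had 13.4 and 4.83 normalized counts in both 3 and both 4, 5.76 in neuron 3, 6.51 in glia 4 and 11.9 in control 3, against 32.2 to 55.5 in batches 1 and 2 with a median of 42.5. Its log2 fold was -2.32 (SE 0.26, limma adjusted p = 0.00167), and the sets did not overlap. Leaving out batch 1 or batch 2 ended this call.

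CG11619 had 15.6 and 24.1 in both 3 and both 4, 24.02 in neuron 3, 30.4 in glia 4 and 22.5 in control 3, against 69.0 to 163 in batches 1 and 2 with a median of 102. The log2 fold was -1.98 (SE 0.14, limma adjusted p = 3.49e-05). Its neighbour CG34256, 413 bp away on 3L, had 9.67 and 12.5 in both 3 and both 4, 12.5 in neuron 3, 13.01 in glia 4 and 21.2 in control 3, against 37.6 to 93.6 in batches 1 and 2 with a median of 53.4. The log2 fold was -1.90 (SE 0.18, limma adjusted p = 0.000549). Both neighbours were lower and neither overlapped between the sets, while CG18135 on the far side of CG34256, 211 bp away, had a log2 fold of -0.47 (limma adjusted p = 0.236).

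The remaining lower genes named by the rule were CG9676 (-1.36), Ugt86Dd, a UDP-glycosyltransferase (-1.35), CG40486 (-0.75), Irp-1B, an iron regulatory protein gene (-0.72), CG42674 (-0.64) and CG40160 (-0.56). CG9676 and CG40486 overlapped between the sets. CG40486 kept its call in 10 and Irp-1B in 14 of 28 alternatives, and both lost it with batch as 4 levels (the replicate block). The other 4 kept theirs in 23 to 26. Some genes that changed overlap on the genome: lectin-28C overlaps TwdlE, a cuticle protein gene (2.77, with a limma adjusted p of 0.0729 under the replicate block), and CG42674 overlaps Ssk, a septate junction gene (1.45), and whether the authors' counting used strand is not given in the sources used here. TwdlE had 0 to 10.6 normalized counts in batches 1 and 2 and 15.4 to 29.8 in batches 3 and 4, so its fold depends on the added 1.

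The non-overlap of the sets, set beside the test, gave 66 genes with all 5 libraries of batches 3 and 4 above all 8 of batches 1 and 2 (0.542%) and 28 below (0.23%). Among the 41 that changed, 28 of the 31 higher and 8 of the 10 lower were of this kind. The exceptions were Ssk, Cry, Ire1, CG9676 and CG40486. By chromosome arm, 15 of 2340 genes tested on 3L changed, or 0.641%, against 0.202% to 0.303% on 2L, 2R and 3R and 0.209% on X. Genes changed within 50000 bp of each other were few, with CG10960 and CG42588 (230 bp apart, 0.58 and 0.53) and CG7290 (2.39, with a limma adjusted p of 0.0522 under the replicate block), near CG42674 and Ssk, beside the pairs named above. CG7290 had at most 3.06 normalized counts in batches 1 and 2 and 3.84 to 8.18 in batches 3 and 4, so its fold depends on the added 1. All these neighbours but lectin-28C and TwdlE lie on 3L, so the genes counted for 3L are not all at separate places. Spearman's rho across genes of the log2 fold with exon length was 0.02 (12042 genes), a description only, since genes are not replicates.

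**Figure D3:**
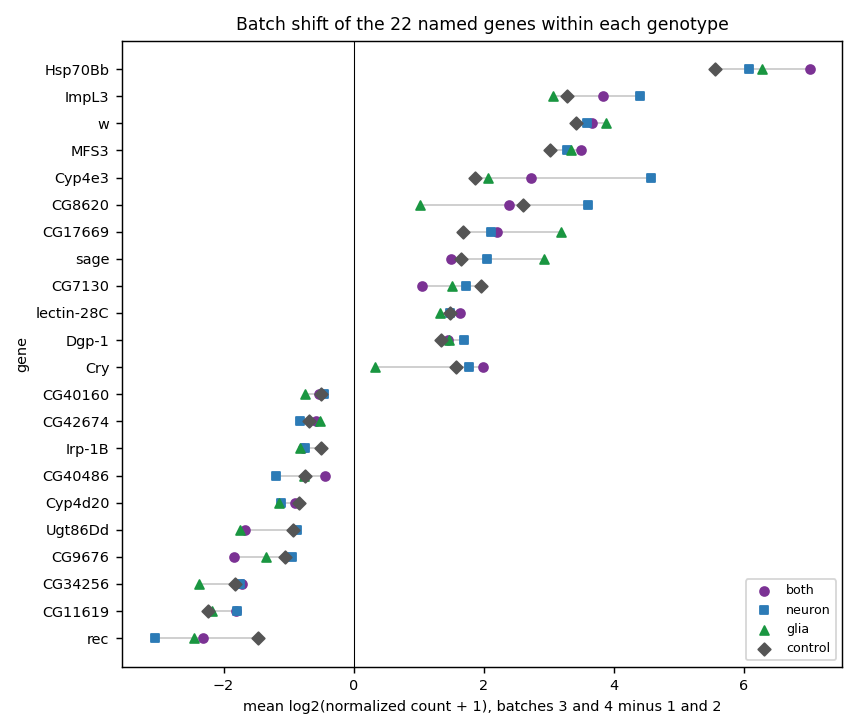
Difference in mean log2(normalized count + 1) between batches 3 and 4 and batches 1 and 2 within each genotype (horizontal axis) for 22 named genes, ordered by fold. The naming rule required 1 direction in all 4 genotypes, so the side of 0 is fixed; the plot shows the spread, as for Cry, where both had 1.99 and glia 0.34.

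Within genotypes, glia entered batches 3 and 4 with batch 4 alone, and neuron and control with batch 3 alone. Since the naming rule asked for 1 direction in all 4 genotypes, the sizes are a description. For w the differences were 3.67 in both, 3.59 in neuron, 3.88 in glia and 3.42 in control, and for Hsp70Bb they were 7.01 in both, 6.08 in neuron, 6.28 in glia and 5.56 in control. The limma test of the interaction of batch set and genotype called 0 of 12181 genes (0%), with a smallest adjusted p of 0.11 and 874 genes at an unadjusted p under 0.05. Without both 4 it called 8. A miss of that threshold does not show equal shifts.

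Batch 3 and batch 4 were also set singly against batches 1 and 2, in a fit with batch as 4 levels. Batch 3 differed in 44 genes (0.361%), 27 higher and 17 lower, and batch 4 in 26 (0.213%), 17 higher and 9 lower. The count for batch 3 was 10 without both 3, 11 without neuron 3 and 15 without control 3, and lay between 22 and 27 without both 1, both 2, neuron 1, neuron 2 or control 2. The count for batch 4 was 10 without glia 4, 16 without both 1 and 17 without neuron 1. Because the 2 contrasts share libraries, only values side by side are given: ImpL3 had 3.70 in batch 3 and 3.62 in batch 4, and Cyp4e3 3.33 and 1.97.

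Differences inside the sets were looked at next, with genes named after their values were seen. Batch 2 differed from batch 1 in 13 genes (0.107%), 6 higher and 7 lower, and batch 4 from batch 3 in 4 (0.0328%), 2 higher and 2 lower. Both w and Hsp70Bb were among the 13: w was 1.00 higher in batch 2 on the log2 scale (limma adjusted p = 0.0225) and Hsp70Bb 2.59 (limma adjusted p = 0.0225), and batch 4 over batch 3 gave 0.29 and 0.35. All 13 genes had the same direction in batch 4 against batch 3. The share over all genes was not counted, so nothing is read from this. Of the 13, 2, Acp65Aa and glob1, changed in both contrasts. The others did not pass in batch 4 against batch 3, as CG7900 with -0.29 (limma adjusted p = 0.958). The contrasts are not independent, since batch 4 against batch 3 also draws on batches 1 and 2 for the genotype terms of the joint fit.

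The globin gene glob1 had 407 and 433 normalized counts in both 4 and glia 4, against 1356, 1750 and 1512 in both 3, neuron 3 and control 3. It had 388 to 442 in the 4 libraries of batch 2, against 1178 to 1834 in those of batch 1. So the odd batches were high and the even ones low, with log2 folds of -1.78 for batch 2 over batch 1 (limma adjusted p = 0.00124) and -1.90 for batch 4 over batch 3 (limma adjusted p = 0.0127). Acp65Aa, an adult cuticle protein gene, ran the other way, at 3.43 for batch 2 over batch 1 and 2.40 for batch 4 over batch 3.

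In another 2 genes a single batch stood apart. mthl8, a methuselah-like receptor gene, had no read in both 4 or glia 4, which allows up to 2.90 and 3.25 normalized counts, against 87.5 to 106 in batch 3 and 70.4 to 218 in batches 1 and 2. That is at least 29.9-fold lower in batch 4 than in batch 3. CG32750 had 114 and 60.7 in both 4 and glia 4, against 1.49, 2.88 and 6.63 in both 3, neuron 3 and control 3, and had 93.1 to 206 in batches 1 and 2. The limma adjusted p of batch 4 over batch 3 was 1.38e-06 for mthl8 and 0.0378 for CG32750.

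**Figure D4:**
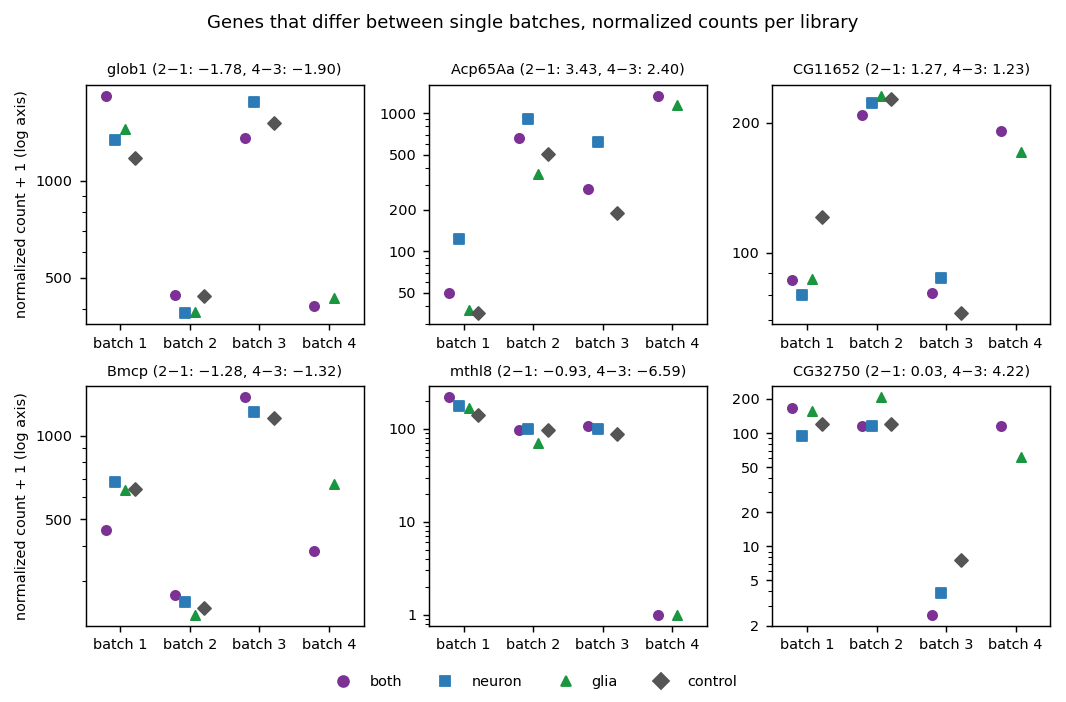
Normalized count plus 1 on log axes for 6 genes in batches 1 to 4, with symbols for genotype. glob1 is higher in every library of batches 1 and 3 than in any of batches 2 and 4, CG11652 is lower, Bmcp in glia 4 (667) and Acp65Aa in neuron 3 (621) break such a split, and mthl8 is at 0 reads in both libraries of batch 4.

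Of 1158 tested members of the 42 lists, 8 changed (0.691%), beside 0.337% of all genes; the members were chosen with results known, so nothing is read from this. Of 28 tested antimicrobial peptides and Bomanins 0 changed, 2 had a positive log2 fold and the median was -0.44. CecA2, a cecropin, had -2.07 and Dro, drosocin, -2.07, while Drsl4 had 1.40 (limma adjusted p = 0.0836). Of 10 yolk and fat body genes 0 changed and the median was -0.23. Yp2, a yolk protein gene, had 17808 and 31038 in both 3 and both 4, 18886 in neuron 3, 8463 in glia 4 and 21116 in control 3, against 22547 to 63597 in batches 1 and 2. Its log2 fold was -1.17 (limma adjusted p = 0.0999), and the ranges overlapped.

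Of the 14 endoplasmic reticulum stress genes 1 changed, beside 0.337% of all genes. In the list, 9 had a positive fold, with a median of 0.09 (0.01 with libraries centred on neuronal genes). Ire1, the stress sensor of the unfolded protein response, had 456 and 511 in both 3 and both 4, 534 in neuron 3, 518 in glia 4 and 406 in control 3, against 304 to 415 in batches 1 and 2. It was higher by 0.46 on the log2 scale (limma adjusted p = 0.0308), with ranges that overlapped at control 3. Hsc70-3, the chaperone BiP, had 0.56 (limma adjusted p = 0.101) and the sensor PEK 0.29 (limma adjusted p = 0.221). All 13 mitochondrially encoded genes had a negative fold, with a median of -0.36, and none changed. They took 4.10% ± 0.371 of reads in batches 3 and 4 and 5.596% ± 1.602 in batches 1 and 2 (SD, n = 5 and n = 8, exact permutation p = 0.111, 0.333 after Benjamini-Hochberg adjustment over the 6 measures). Of 13 clock genes 0 changed, with a median of 0.04 (-0.05 with libraries centred on neuronal genes). Takeout, listed as to, had 0.61 (limma adjusted p = 0.49). The next smallest p-values were those of vri (0.30), Clk (-0.29) and tim (0.28), none of which passed.

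**Figure D5:**
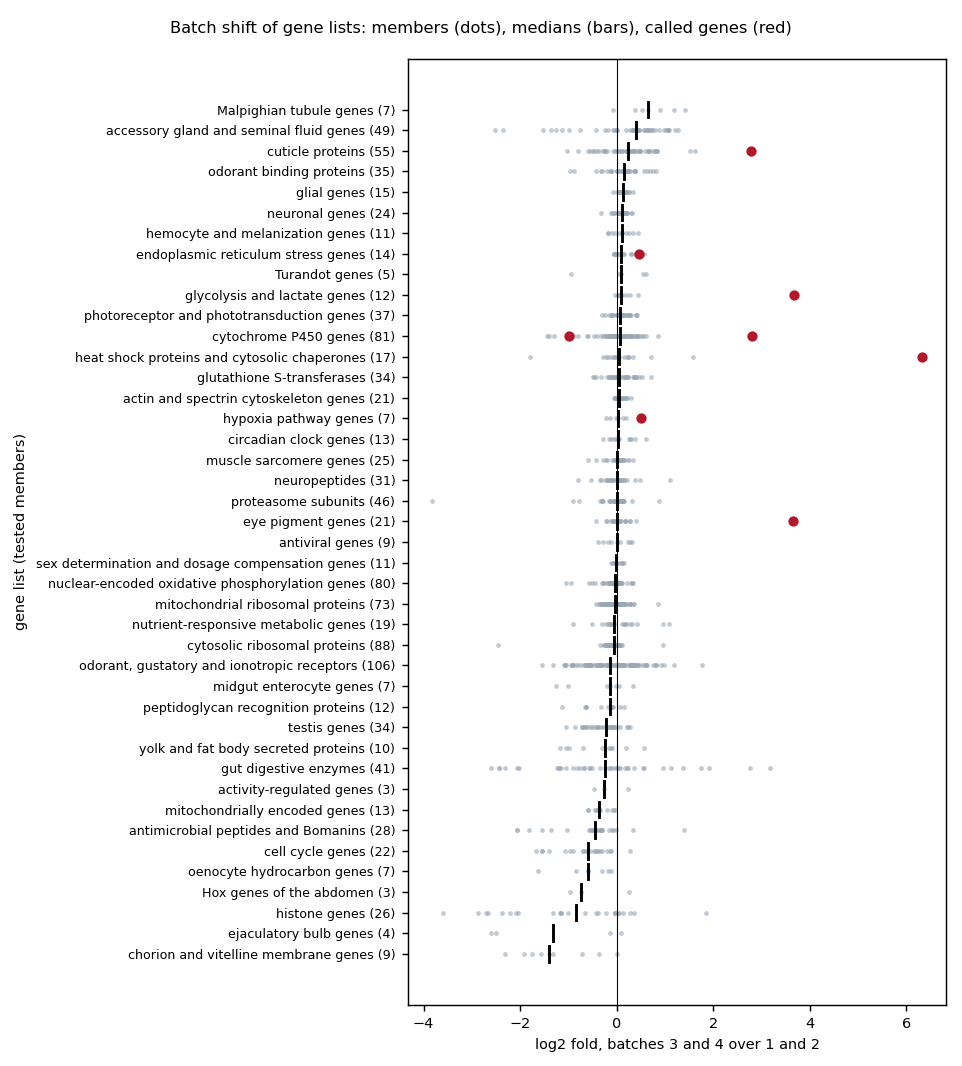
Log2 fold of batches 3 and 4 over batches 1 and 2 for the tested members of each gene list (dots), list medians (bars) and genes that changed (red). The medians run from 0.64 for Malpighian tubule genes to -1.40 for chorion genes, whose counts were far higher in glia 2 than in any other library. The 7 lists with a red point hold 8 genes that changed, from Cyp4d20 at -0.99 to Hsp70Bb at 6.32.

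Markers of organs outside the head were counted because dissected heads can carry them. Of 172 tested members in 10 organ lists, 0 changed, which is near the 0.337% of all genes and no result about them. Organ list genes took 0.731% to 1.66% of normalized counts in batches 3 and 4 and 0.666% to 2.79% in batches 1 and 2, with 1 member at 0 in all 5 libraries of batches 3 and 4 and 0 members at 0 in all 8 of batches 1 and 2. Chorion and vitelline membrane genes had a median log2 fold of -1.40 and cell cycle genes -0.59, both without a gene that passed. The part of organ and cell cycle genes in these results was not tested.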

How the data were processed

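Heads of 10-day-old flies were sequenced as ribosome-depleted, stranded, paired-end libraries, per the labels' protocols. Tools named in the submitters' processing notes are STAR, featureCounts, Salmon, DESeq2, FastQC and MultiQC, with the build BDGP6; versions and settings are not given in the sources used here. Per the file headers the deposited signal is an adjusted count; each value is 1 plus reads divided by a factor fixed within a column, and 100% came out whole within 0.01. The 12286 genes include 5 symbols deposited as dates, which were read as current symbols by gene ID. Coordinates came from the Ensembl BDGP6 annotation, where 12147 IDs matched.

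Normalized counts were the deposited values minus 1. Genes with at least 1 in at least 4 libraries were tested (12181, 105 removed) by limma-trend (limma 3.58.1, R 4.3.3; log2 with pseudocount 1, genotype and batch set, 8 residual degrees of freedom), Benjamini-Hochberg threshold 0.05. Batch as 4 levels left 6 and the interaction 5. The planned design put a count test first had the values been whole counts; they carry an offset, so limma was used. The fit was also run on simulated counts without genotype effects or spread between batches of a set, so that run does not cover these features. Library measures had an exact permutation test.

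The labels give batch and replicate as 1 number, so same-numbered libraries are paired by label, and the 4-level batch fit is the replicate block. Named genes were up to 12 per direction with the largest fold among those that changed, with a mean of at least 20 and 1 direction in 4 genotypes, plus w and Hsp70Bb, and up to 4 members per list with the smallest p. The members, rule and lists were chosen with earlier results of these data known. A list of small nuclear and nucleolar RNAs matched no such RNA and was dropped, and the lists of glycolysis and hypoxia genes were added later. Alternatives covered scaling, pseudocount, filters, covariate, weights and left-out libraries or batches. Transgene RNA was not analysed here. Floors (3 reads) cover counting error only, while the limma SEs come from the spread between pools.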

Additional observations from a re-analysis of the deposited data

Results flagged for a closer look

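Among 56 groups of library values checked, of which chance flags about 1 in 20, 4 had a library far from the others of its set. CG34256 had 21.2 normalized counts in control 3, above the other 4 libraries of batches 3 and 4. CG17669 had 5.10 in glia 2, below the other 7 libraries of batches 1 and 2. Cyp4d20 had 236 in both 1, above the other 7 of batches 1 and 2. The share of reads in histone genes was 0.430% in glia 2, above the other 7 of batches 1 and 2. Glia 2 also had the highest share of organ list genes, 2.79%, and its part in these values was not tested.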

How the results depend on the processing

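The 41 genes became 74 with limma-voom, 75 with array weights, 18 with libraries centred on neuronal genes, 10 without batch 3, 11 without batch 1, 21 without batch 2, and 54 without control 1 and glia 2. With the replicate block (batch as 4 levels) 48 changed, 36 of them among the 41, and this moved no count by over 1.5 times; the 5 others, CG40486, Irp-1B, TwdlE, CG7290 and CG30389, lost their calls under it. Leaving out each library in turn gave 28 to 68, the highest without glia 2; for batch 3 alone 10 to 61, for batch 4 alone 10 to 25, and for the interaction 0 to 8, the 8 without both 4. The interaction could not be estimated without neuron 3, glia 4 or control 3. Of 616 values of 22 named genes over 28 alternatives, 525 kept direction and call, 91 lost the call and 0 reversed; ImpL3, w, MFS3, Dgp-1 and CG11619 kept both in all 28. The genotype-adjusted difference of the 10-gene share was -3.05 to -2.46 with each library left out, where too few arrangements remain for its test to pass, of the mitochondrial share -1.64 to -0.962, of the histone share -0.0440 to 0.00282 (main -0.0266), of normalized count per read -0.0943 to 0.0464 (main -0.0292), of genes detected -117.0 to 132.6 (main -30.8), and of reads in genes -286497 to 110696 (main -42727); the cause was not tested. The planned edgeR and DESeq2 alternatives were not run. With 5 against 8 pools and 8 residual degrees of freedom, small changes can be missed, and batch 4 holds neither neuron nor control and batch 3 no glia.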
